A study of Mus musculus with 69 samples.

Results

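The 9 genes Cyp1a1, Cyp1b1, Cyp2g1, Cyp2w1, Adh6a, Adh7, Fmo2, Cbr2 and Stra6 carry out or feed the oxidation of foreign compounds and of retinoids. They were followed in mouse back skin after topical TPA, the phorbol ester 12-O-tetradecanoylphorbol-13-acetate, an activator of protein kinase C that makes epidermis proliferate and inflames it. They were picked by gene symbol from the 18820 genes measured with probe sets of a single symbol, and the choice was made on their changes against untreated skin and on the difference between untreated SPR and F1 skin. For that reason these values are given for the 9 genes as a description, without a test, while tests are given for 146 other genes of the same pathways. The 9 genes are read by 10 probe sets, 1 per gene and 2 for Cyp1b1, and all passed into the fit because no filter on low values was set.

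Mice were aged to 8 weeks. Mice of 3 kinds were compared with their own untreated skin: FVB, the inbred FVB/N line, SPR, the Spret/Ei line derived from the wild species Mus spretus, and F1, the cross of both. FVB skin was sampled at 2, 6, 12, 24, 48, 72, 168 and 1008 h after TPA and untreated at 0 h, with 3 arrays each. F1 skin was sampled at 2, 4, 6, 12, 24, 48, 72, 168 and 1008 h with 1 to 6 arrays each, and untreated with 4 arrays. SPR skin was sampled at 2, 4, 6, 12, 24, 48 and 1008 h with 1 or 2 arrays each, and untreated with 2 arrays. TPA was given in acetone to shaved skin. The protocol in the labels describes a single dose and sampling to 1 week, the design text speaks of replicate exposure, and arrays at 12 h and 1008 h are also present, so how skin sampled at 1008 h was dosed is not settled. No arrays of vehicle-treated skin are among the samples, so acetone, shaving and the older age at 1008 h cannot be told apart from TPA. The labels do not say that replicate arrays came from separate mice, and p-values measure only the spread between these arrays, whose number limits the precision.

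Many foreign chemicals enter the body through the skin, where cytochrome P450 enzymes (Cyp genes) add oxygen to them in a first step, flavin monooxygenases (Fmo genes) oxidise their nitrogen and sulphur atoms, and carbonyl reductases (Cbr genes) reduce aldehydes and ketones. The aryl hydrocarbon receptor, a transcription factor that binds polycyclic aromatic hydrocarbons, switches on Cyp1a1 and Cyp1b1. Keratinocytes also take up retinol, oxidise it to retinal with alcohol and short-chain dehydrogenases and to retinoic acid with aldehyde dehydrogenases, and retinoic acid acts through nuclear receptors on epidermal growth and differentiation.

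The start regions of 8 of the 9 genes were found in RefSeq (build GRCm38.p6), each as 250 bases before and 50 after a transcription start. A total of 4 motifs were searched there: GCGTG, the core bound by the aryl hydrocarbon receptor, on both strands, where CACGC is its form on the other strand, TGAGTCA, the AP-1 site through which phorbol esters act on many genes, on both strands, AGGTCA, the single-repeat core of retinoid receptor sites, on both strands, and TATAAA, the TATA box, on the gene's strand. Of 32851 such start regions in the table, 32.4% held GCGTG, 5.2% TGAGTCA, 16.3% AGGTCA and 8.32% TATAAA. The sequences from 100 bases before to 30 after the start are shown for the 6 genes that hold a match, with the matches in capitals. They lie at chr9:57697513-57697642 (plus strand, Cyp1a1), chr17:79715032-79715161 (minus strand, Cyp1b1), chr5:139352516-139352645 (plus strand, Cyp2w1), chr3:138313186-138313315 (plus strand, Adh6a), chr3:138217673-138217802 (plus strand, Adh7) and chr1:162898464-162898593 (minus strand, Fmo2, the start site with a match).
Cyp1a1: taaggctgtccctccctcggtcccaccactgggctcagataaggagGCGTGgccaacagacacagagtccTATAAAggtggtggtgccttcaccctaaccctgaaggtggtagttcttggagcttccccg
Cyp1b1: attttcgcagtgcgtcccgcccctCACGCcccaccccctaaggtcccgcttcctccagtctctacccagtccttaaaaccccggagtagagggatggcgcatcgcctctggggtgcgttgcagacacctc
Cyp2w1: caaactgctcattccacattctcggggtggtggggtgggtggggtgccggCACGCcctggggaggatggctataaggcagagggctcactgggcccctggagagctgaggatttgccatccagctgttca
Adh6a: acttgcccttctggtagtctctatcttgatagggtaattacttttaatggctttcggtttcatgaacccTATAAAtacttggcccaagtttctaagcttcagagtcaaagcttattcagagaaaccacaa
Adh7: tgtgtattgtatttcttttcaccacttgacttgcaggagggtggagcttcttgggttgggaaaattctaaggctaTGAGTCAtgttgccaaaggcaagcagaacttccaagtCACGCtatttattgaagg
Fmo2: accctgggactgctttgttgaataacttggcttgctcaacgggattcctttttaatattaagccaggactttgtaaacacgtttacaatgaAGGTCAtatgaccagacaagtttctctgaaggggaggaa
Cyp1a1, Cyp1b1 and Cyp2w1 each held the receptor core within 100 bases before the start, first base at -54, -76 and -50. Adh7 was the only one of the 8 genes with TGAGTCA, at -25, and it held the receptor core at 13 bases after the start. At 1 of its start sites Fmo2 held AGGTCA at -9, and Cbr2 and Stra6 held none of the 4 motifs in these windows. A match is a run of letters and not a shown binding site.

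**Figure D1:**
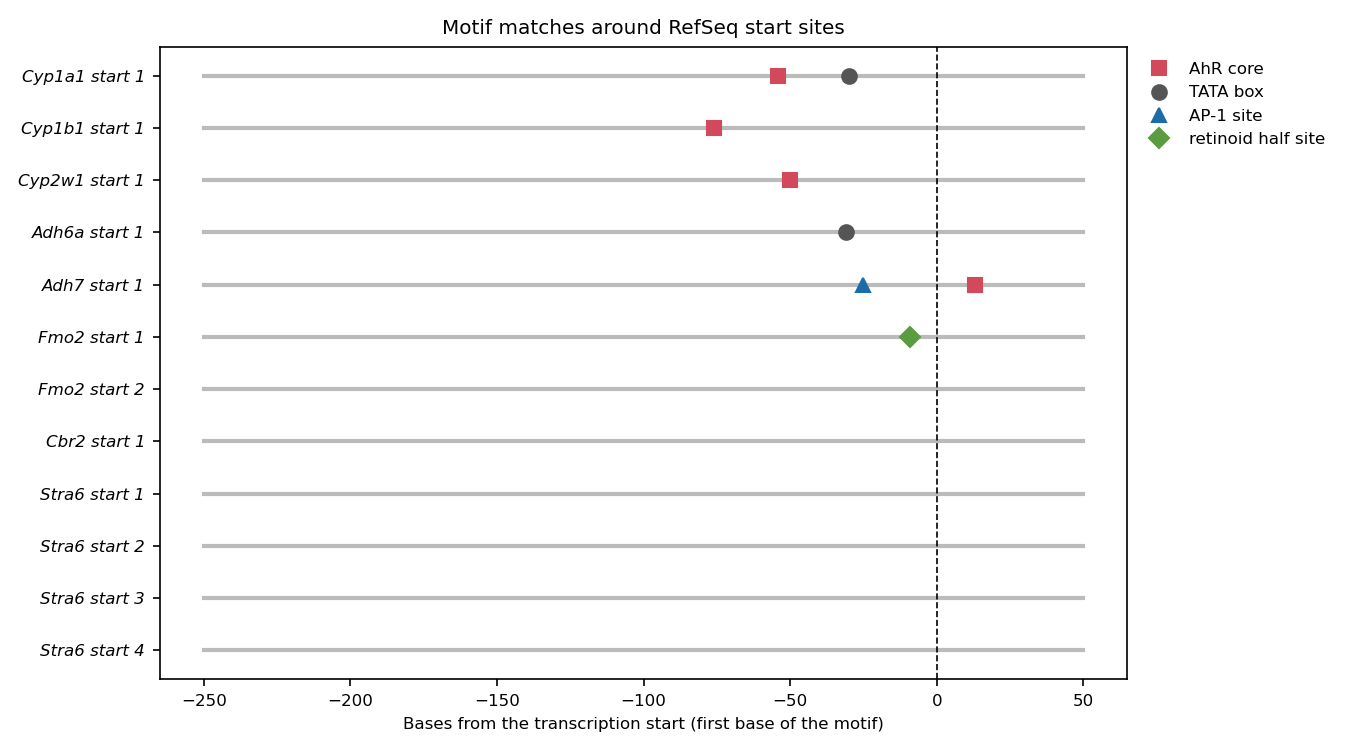
Positions of motif matches from 250 bases before to 50 after each RefSeq start site of 8 genes, with 1 row per start site and 1 symbol per kind of motif at its first base. The receptor core lies upstream of the starts of Cyp1a1, Cyp1b1 and Cyp2w1, and the single AP-1 site lies at -25 in Adh7.

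Expression is given as deposited, as log2 values of RMA-normalised arrays, so that 1 unit is a 2-fold difference, and the median probe set lies at 5.52. Values of different genes are not set against each other, because each probe set has its own response. All 9 measured basal and all 9 suprabasal keratinocyte markers lay above the median probe set in untreated skin of every strain. In untreated FVB skin the summed score of 19 liver genes (a mean over genes of the distance from each gene's mean) was -0.64, 2.13 and 2.58 on the 3 arrays, so controls 2 and 3 stand apart from control 1. Treated arrays varied as well, from -2.28 on FVB 72 h replicate 1 to 2.97 on FVB 12 h replicate 1, with 2.56 on F1 24 h replicate 1 and 1.13 to 1.35 in FVB at 1008 h. Leaving out controls 2 and 3 thus does not remove all high liver scores. Among all arrays, 2 had a narrow range of values, with interquartile ranges of 1.63 for SPR 12 h replicate 1 and 2.47 for F1 72 h replicate 2, against 3.32 to 3.72 for the others. The labels put every FVB array in batch 1 and the other strains in batches 2 and 3. Strain and batch cannot be told apart for FVB, whose levels are therefore not set against those of F1 or SPR. Changes against 0 h come from 1 limma model of all groups with a term for batch 3 against batch 2, and a gene outside the 9 is called at an adjusted p (Benjamini-Hochberg over all genes) under 0.05 with a change of at least 2-fold.

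Stra6, the membrane receptor that brings retinol into cells from its plasma carrier, had a higher mean after TPA than untreated at every sampled time in FVB and F1, by differing amounts. In FVB it read 7.89, 7.56 and 7.65 at 6 h, 8.26, 8.16 and 7.85 at 72 h and 7.65, 7.94 and 8.74 at 1008 h, against 6.34, 5.78 and 5.23 in untreated skin. All treated arrays from 6 h on lay above all 3 untreated ones, and at 2 h the groups overlapped. Its fitted change was 1.91 ± 0.43 (SE, n = 3 against 3) at 6 h and 2.33 ± 0.43 at 1008 h, and with control 1 alone these were 1.36 and 1.77. In F1 the single array at 2 h read 8.56, the arrays at 24 h read 8.50 and 7.82 and the 6 arrays at 1008 h ran between 6.74 and 9.07 with a median of 8.15, against 7.05, 5.86, 6.27 and 5.97 in untreated skin. The 24 h arrays lay above every untreated array, whereas at 1008 h 1 of 6 lay inside the untreated range. The fitted change in F1 was 1.88 ± 0.46 at 24 h, with 1.16 within batch 2 and 2.59 within batch 3, and 1.75 ± 0.34 at 1008 h. It was smallest at 12 h, where 0.38 ± 0.46 lay within its standard error of no change, and it was 0.90 ± 0.47 at 72 h. SPR skin read 8.97 and 8.88 at 24 h and 8.14 and 8.18 at 48 h, against 6.43 and 6.86 in untreated skin. Its 24 h arrays were the highest of the strain, with a fitted change of 2.35 ± 0.54 (n = 2 against 2). At 12 h its arrays read 5.76 and 7.95 on either side of the untreated ones, so the change of 0.21 becomes -0.88 without replicate 2 and 1.31 without replicate 1. In skin sampled whole, fewer cells of a type and less RNA per cell cannot be told apart, here and for every gene that follows.

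Adh7, the class IV alcohol dehydrogenase that oxidises retinol in epithelia, showed a deep and brief dip in all 3 strains. FVB skin read 8.55, 8.48 and 8.46 at 2 h, 6.53, 6.33 and 6.24 at 6 h, 7.44, 7.43 and 7.07 at 12 h and 8.91, 8.38 and 8.42 at 24 h, against 9.83, 9.57 and 9.36 in untreated skin. The 4 groups lay wholly below the untreated arrays, with the low point at 6 h, and at 72 h the values were back at 9.58 to 9.99. At 6 h the fitted change was -3.22 ± 0.38, a 9.3-fold lower level. F1 skin was also lowest at 6 h, with 7.16 and 7.34 at 4 h, 6.22 and 6.24 at 6 h and 7.94 and 7.64 at 12 h, against 9.29, 10.17, 9.45 and 10.02 in untreated skin. The fitted change at 6 h was -3.50 ± 0.41 (n = 2 against 4), an 11.3-fold lower level, with -3.15 within batch 2 and -3.85 within batch 3. SPR skin read 8.40 and 7.84 at 4 h, 7.51 on the single 6 h array and 5.96 and 8.27 at 12 h, against 9.96 and 9.94 in untreated skin. The 12 h value of 5.96 is the narrow array, and the fitted change of -2.83 ± 0.47 at 12 h was -1.68 without it. At 48 h in FVB the arrays spread between 8.53 and 11.55, and the mean there, 0.26 above the untreated one, became -0.59 without the array at 11.55.

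Adh6a, another alcohol dehydrogenase gene on chromosome 3, was low at 12 h in F1 and SPR and lowest at 1008 h in FVB, and no difference between strains was tested. In FVB it read 7.80, 7.49 and 7.82 at 6 h, 6.94, 7.82 and 7.15 at 48 h, 9.57, 9.68 and 9.38 at 168 h and 5.84, 6.18 and 6.57 at 1008 h, against 8.79, 8.56 and 8.68 in untreated skin. Its highest and its lowest group means of the FVB course are thus the last ones sampled, 168 h above all untreated arrays and 1008 h below them, with fitted changes of 0.87 ± 0.34 and -2.48 ± 0.34. F1 skin read 6.71 and 6.37 at 6 h and 6.39 and 6.08 at 12 h, against 7.89, 8.82, 8.29 and 8.55 in untreated skin. The 12 h change was -2.15 ± 0.36, whereas the 6 arrays at 1008 h, between 7.83 and 8.73 with a median of 8.46, overlapped the untreated ones. In SPR only 12 h stood well below, at 6.04 and 7.26, against 8.79 and 9.11 in untreated skin. The fitted -2.30 ± 0.41 there was -1.69 without the narrow array.

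Fmo2, a flavin monooxygenase best known from lung, was low at 12 h in all 3 strains, and in FVB about as low at 1008 h. FVB skin read 6.49, 7.59 and 3.84 at 12 h and 5.74, 6.05 and 6.16 at 1008 h, against 8.13, 8.11 and 8.10 in untreated skin. Up to 6 h FVB values stayed at 7.88 to 8.96, and the 12 h change of -2.14 ± 0.52 shrank to -1.07 without the array at 3.84, which leaves 1008 h (-2.13) as the lower time. F1 skin read 4.77 and 5.05 at 12 h and 6.46 and 5.80 at 24 h, against 7.93, 8.63, 8.18 and 8.60 in untreated skin. Both groups lay wholly below, by -3.42 ± 0.55 at 12 h (a 10.7-fold lower level) and -2.20 ± 0.55 at 24 h, and at 6 h the fitted -1.39 came apart into -0.75 within batch 2 and -2.03 within batch 3. SPR skin read 5.58 and 5.14 at 12 h and 6.56 and 5.98 at 24 h, against 8.29 and 8.03 in untreated skin. The fitted 12 h change in SPR was -2.80 ± 0.64, and -3.02 without the narrow array. At 1008 h the 3 strains read differently: -2.13 ± 0.52 in FVB, -0.56 ± 0.41 in F1 and 0.25 ± 0.65 in SPR, and no difference between these was tested.

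Cbr2, a carbonyl reductase that is abundant in mouse lung, was lowest in FVB at 12 h, with 6.08, 7.76 and 5.77 at that time, against 8.98, 8.93 and 8.80 in untreated skin. All 3 arrays lay below, by -2.37 ± 0.41 on the fit, and at 48 h the values ran between 8.22 and 10.26 around the untreated ones. At 6 h only 1 of the 3 FVB arrays was low (6.51, against 8.67 and 8.70 on the other arrays of that time). F1 values moved less, with 8.00 and 7.94 at 12 h, against 9.04, 8.91, 8.86 and 8.74 in untreated skin. SPR skin read 7.40 and 7.55 at 24 h and 7.91 and 8.14 at 48 h, against 6.85 and 6.65 in untreated skin. In SPR these groups lay above the untreated arrays, by 1.27 ± 0.50 at 48 h.

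**Figure D2:**
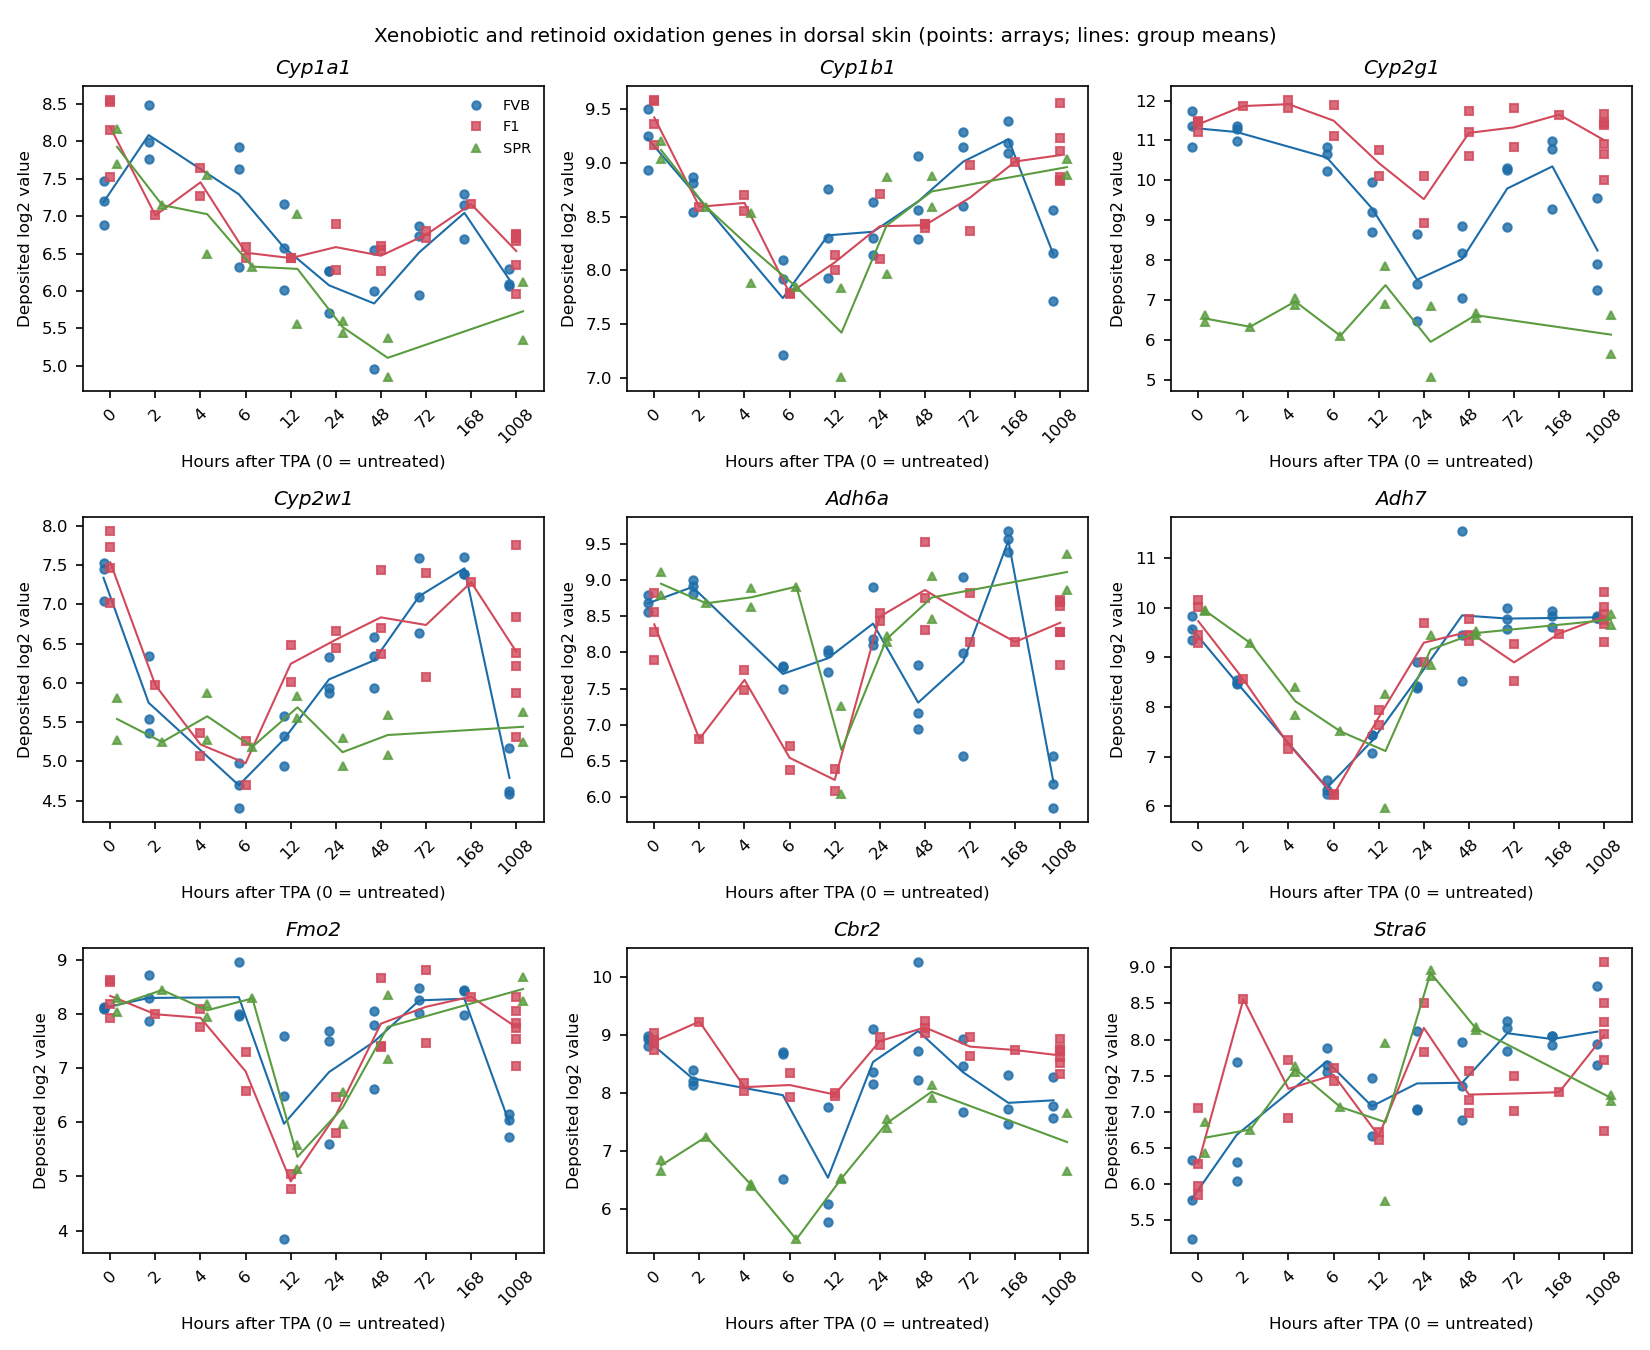
Deposited log2 values of the 9 genes on every assigned array by hours after TPA, with points for arrays and lines for group means in FVB (circles), F1 (squares) and SPR (triangles). Adh7 dips at 6 h, to between 6.24 and 6.53 in FVB, Fmo2 is low at 12 h in each strain and again at 1008 h in FVB, and Cyp2g1 in SPR stays between 5.06 and 7.85 throughout.

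Cyp1a1, the enzyme most strongly switched on by the aryl hydrocarbon receptor, was higher early in FVB and lower later in all strains. FVB skin read 7.77, 8.49 and 7.99 at 2 h, 6.26, 6.26 and 5.70 at 24 h and 6.00, 6.54 and 4.95 at 48 h, against 6.88, 7.47 and 7.20 in untreated skin. The 2 h arrays all lay above the untreated ones, by 0.90 ± 0.37, and the 24 h and 48 h arrays all below, by -1.11 ± 0.37 and -1.35 ± 0.37. At 168 h, values of 6.69 to 7.29 overlapped those of untreated skin, and at 1008 h they were low again, at 6.06, 6.09 and 6.29. F1 skin read 6.44 and 6.58 at 6 h and 6.44 on both 12 h arrays, against 7.52, 8.56, 8.15 and 8.53 in untreated skin. Every treated F1 group except that at 4 h (7.27 and 7.64) lay below the lowest untreated array, including the single 2 h array at 7.01, and the 1008 h change was -1.64 ± 0.29, with -1.21 within batch 2 and -2.20 within batch 3. SPR skin read 5.44 and 5.59 at 24 h, 5.37 and 4.84 at 48 h and 6.11 and 5.34 at 1008 h, against 7.69 and 8.16 in untreated skin. The SPR change of -2.82 ± 0.45 at 48 h is a 7.08-fold lower level.

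Cyp1b1, which oxidises aromatic hydrocarbons and can also oxidise retinol, was lowest at 6 h in FVB and F1. FVB skin read 8.09, 7.92 and 7.22 at 6 h, against 9.50, 9.25 and 8.93 in untreated skin, and F1 skin read 7.78 and 7.79, against 9.17, 9.57, 9.36 and 9.58. Neither pair of groups overlapped, and the fitted changes were -1.48 ± 0.26 in FVB and -1.63 ± 0.28 in F1. SPR skin read 7.005 and 7.84 at 12 h, against 9.03 and 9.20 in untreated skin. The 7.005 is the narrow array, and the fitted 12 h change of -1.70 ± 0.32 in SPR was -1.28 without it. By 168 h FVB values were back at 9.09 to 9.39, and at 1008 h they were 7.71, 8.16 and 8.56. These values come from the brighter of the gene's probe sets. The dim one, with a mean of 4.45 that lies below the median probe set, changed by -0.51 ± 0.26 in FVB and -0.67 ± 0.28 in F1 at 6 h, so the probe sets share the direction and differ in size.

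Cyp2g1, a P450 first known from olfactory mucosa, had the largest fitted change of the 9 genes in FVB, and its low point came late. FVB skin read 10.65, 10.83 and 10.24 at 6 h, 8.71, 9.96 and 9.22 at 12 h, 8.64, 7.40 and 6.48 at 24 h and 8.18, 8.85 and 7.05 at 48 h, against 11.74, 11.37 and 10.84 in untreated skin. The groups from 6 h to 72 h lay wholly below the untreated arrays, with a fitted -3.81 ± 0.51 at 24 h, a 14-fold lower level. At 168 h the arrays read 9.28, 10.79 and 10.98, of which 1 overlapped the untreated range, and at 1008 h they were low again at 7.25, 7.91 and 9.56. F1 skin read 12.02 and 11.80 at 4 h and 10.12 and 8.94 at 24 h, against 11.46, 11.22, 11.48 and 11.46 in untreated skin. The 4 h arrays lay above and the 24 h arrays below, by -1.88 ± 0.54 at 24 h (-2.53 within batch 2 and -1.22 within batch 3), and by 48 h the groups overlapped. SPR skin ran between 5.06 and 7.85 after TPA, with 6.63 and 6.44 in untreated skin, and no SPR group mean moved by more than 0.84 from the untreated one. Beside Cyp2g1 in FVB, the score of 14 sebaceous gland markers lay between -0.43 and 0.01 at 24 h, between -0.57 and -0.27 at 48 h and between -0.20 and -0.04 at 1008 h, against 0.16 to 0.54 in untreated skin. Of the 14, 3 were called lower and 0 higher at 24 h, 5 lower and 0 higher at 48 h, and 1 lower and 2 higher at 1008 h. In F1 at 24 h that score was 0.01 to 0.04, against -0.31 to 0.03, with 0 of 14 called in either direction. The part of sebaceous gland content in the Cyp2g1 values was not tested.

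Cyp2w1, a P450 that oxidises retinoids and lysophospholipids and is known from fetal gut and colorectal tumours, was low by 6 h in FVB and F1. FVB skin read 6.34, 5.36 and 5.54 at 2 h, 4.70, 4.99 and 4.40 at 6 h and 6.33, 5.94 and 5.88 at 24 h, against 7.53, 7.45 and 7.04 in untreated skin. The low groups did not overlap the untreated arrays, with -2.64 ± 0.37 at 6 h, a 6.24-fold lower level, and at 168 h the values of 7.39 to 7.60 were back in the untreated range or just above it. At 1008 h FVB skin read 4.58, 5.17 and 4.62, close to the 6 h values. F1 skin read 5.36 and 5.08 at 4 h and 5.25 and 4.70 at 6 h, against 7.02, 7.73, 7.46 and 7.94 in untreated skin. The 6 h change was -2.56 ± 0.39 in F1, with -1.98 within batch 2 and -3.13 within batch 3, and the 1008 h change of -1.14 ± 0.29 was -0.57 and -1.99 in these batches. SPR skin, at 5.81 and 5.27 untreated, stayed between 4.94 and 5.87 after TPA, close to the median probe set.

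**Figure D3:**
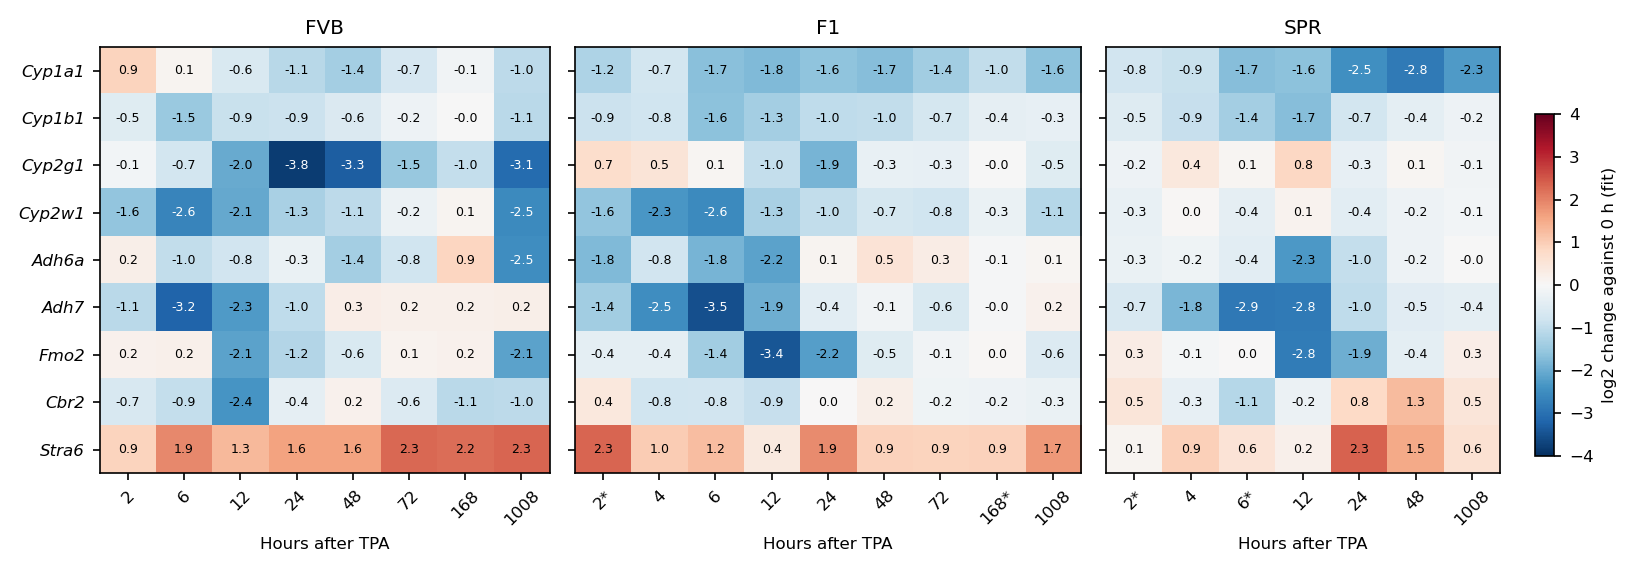
Fitted log2 change against untreated skin for each of the 9 genes (rows) and time (columns) in FVB, F1 and SPR, with red for higher and blue for lower after TPA and an asterisk at times with a single array. Stra6 is the only row above 0 in every column, although its SPR 12 h value of 0.21 is -0.88 without replicate 2 and 1.31 without replicate 1, and FVB at 1008 h holds changes of -1.03 to -3.08 in 7 of the 9 genes.

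Across genes, the lowest FVB group mean lay at 6 h for Cyp1b1, Cyp2w1 and Adh7, at 12 h for Fmo2 and Cbr2, at 24 h for Cyp2g1, at 48 h for Cyp1a1 and at 1008 h for Adh6a, and for Stra6 untreated skin was lowest. Some of these low points stand close to another time, with FVB means of 5.972 at 12 h and 5.98 at 1008 h for Fmo2, 4.697 at 6 h and 4.791 at 1008 h for Cyp2w1, and 6.075 at 24 h and 5.832 at 48 h for Cyp1a1. These orders turn without 1 array, which is FVB 12 h replicate 3 or FVB 1008 h replicate 2 or 3 for Fmo2, FVB 6 h replicate 3 or FVB 1008 h replicate 2 for Cyp2w1, and FVB 48 h replicate 3 for Cyp1a1. The count of the 9 that pass the call used for other genes is given only as a description. In FVB 2 of the 9 passed at 2 h, where 6.68% of all genes were called. The count was 4 at 6 h (12.3% of all genes), 6 at 12 h (10.4%), 4 at 24 h (5.48%) and 4 at 48 h (5.95%). Later it was 1 at 72 h (1.88%), 1 at 168 h (0.383%) and 7 at 1008 h (8.14%). The only gene of the 9 that passed in the higher direction was Stra6, in FVB from 6 h on, in F1 at 24 h and 1008 h and in SPR at 24 h. In F1 the counts were 2 at 4 h (10.5% of all genes), 5 at 6 h (10.4%) and 6 at 12 h (4.94%). Later they were 5 at 24 h (1.89%), 1 at 48 h (1.39%) and 1 at 72 h (1.99%), with 3 at 1008 h (0.802%). In SPR they were 1 at 4 h (5.26%) and, with the narrow array included, 5 at 12 h (18.4%), followed by 2 at 24 h (0.26%), 1 at 48 h (0.207%) and, where no gene of the array was called, 0 at 1008 h (0%). Over the FVB course the median change of the 9 genes ran from -2.02 (12 h) to 0.12 (168 h), with -1.08 in 1008 h skin. Over all genes the median stayed between -0.04 and 0.05. The 9 were picked on their changes against untreated skin, so a median away from that of all genes is built into the choice. These medians are a description only. At 12 h in FVB other markers moved as well, with 4 of 9 dermal fibroblast markers called lower and 1 higher, 4 of 14 sebaceous gland markers lower and 1 higher, 4 of 9 suprabasal keratinocyte markers lower and 3 higher, and 4 of 9 neutrophil and 2 of 7 macrophage markers higher and 0 lower. Their part in the 12 h values of the 9 genes was not tested.

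The FVB arrays at 1008 h differed from untreated FVB skin in their hair follicle markers too. The score of 12 such markers lay between 2.99 and 3.21 at 1008 h, against -0.30 to -0.24 in untreated skin, with 8 of 12 called higher and 0 lower. In F1 at 1008 h the score ran between -0.74 and 1.53, against -0.83 to 2.15 in untreated skin, and 0 of 12 were called. In SPR it was 1.78 to 1.80 at 1008 h, against -0.42 to -0.28 in untreated skin, again with 0 of 12 called. Neutrophil markers in FVB had scores of 0.44 to 0.91 at 1008 h, against -1.30 to -1.10 in untreated skin, with 3 of 9 called higher and 0 lower. In F1 2 of 9 neutrophil markers were called higher at 1008 h and 0 lower, and in SPR 0 were called. Of 9 suprabasal keratinocyte markers 3 were called higher and 1 lower in FVB at 1008 h, and of 9 basal ones 1 higher and 2 lower. The part of hair follicle, neutrophil or keratinocyte content in the 1008 h values of Cyp2g1, Cyp2w1, Adh6a, Fmo2 and Stra6 was not tested.

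Between untreated SPR and F1 skin, 3 of the 9 genes passed the call used for other genes, and 0.239% of all genes passed it. The 9 were chosen partly on this difference, so their count is given only as a description. Cyp2g1 read 6.63 and 6.44 in SPR, against 11.46, 11.22, 11.48 and 11.46 in F1, a fitted difference of -5.13 ± 0.56 (n = 2 against 4), which is 34.9-fold. Cbr2 read 6.85 and 6.65 in SPR, against 9.04, 8.91, 8.86 and 8.74 in F1, a difference of -2.21 ± 0.45. Cyp2w1 read 5.81 and 5.27 in SPR, against 7.02, 7.73, 7.46 and 7.94 in F1, a difference of -1.995 ± 0.40. None of these pairs of groups overlapped, and within batch 2 alone the differences were -4.93, -2.20 and -1.70. The other 6 genes differed by -0.26 to 0.75 with standard errors of 0.29 to 0.57. All 45 genes of the array that passed the call were lower in SPR and 0 were higher. Whether the array's probes match SPR transcripts as well as those of the reference strain was not tested.

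**Figure D4:**
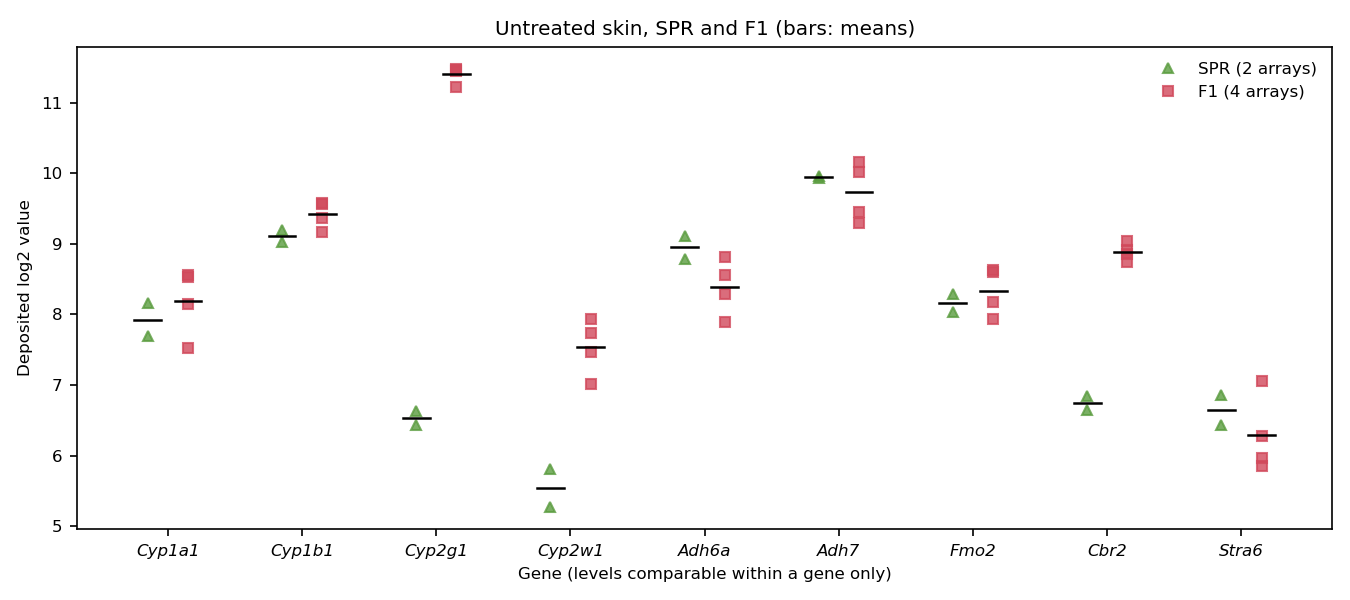
Deposited log2 values of the 9 genes in untreated skin of SPR (triangles, 2 arrays, left of each pair) and F1 (squares, 4 arrays, right), with bars for means. The groups stand apart for Cyp2g1, Cbr2 and Cyp2w1, by 34.9-fold for Cyp2g1, and the vertical axis allows comparison within a gene only.

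Among the 146 other pathway genes measured, in 6 lists, 75 were called at 1 or more times in FVB, with 16 that rose and 59 that fell. That is 51.4% of them, against 24.3% of all genes. With control 1 alone in place of all 3 untreated arrays, 33 were called (22.6%, against 17.3% of all genes). In F1 14 rose and 18 fell, which is 21.9%, against 16.2% of all genes. In SPR 11 rose and 29 fell (27.4%, against 22%), and without the narrow arrays 14 were called (9.59%, against 6.85%). These shares describe the lists and carry no test of their own. All 29 genes that fell in SPR, over the 6 lists, were called lower at 12 h, 3 of them also at 4 h and 1 also at 48 h. Of the 11 that rose in SPR, 9 were called higher at 12 h. The 12 h time holds the narrow SPR array, and 18.4% of all genes were called there.

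Of the genes that take up, bind and store retinoids, 14 were measured, of which 4 rose and 4 fell in FVB, 3 rose and 0 fell in F1, and 1 rose and 4 fell in SPR. Called shares were 57.1% in FVB, 21.4% in F1 and 35.7% in SPR, against 24.3%, 16.2% and 22% of all genes. Rbp2, a cellular retinol-binding protein, averaged 9.48 ± 0.12 at 12 h, against 6.01 ± 0.22 in untreated FVB skin (SD, n = 3 each), a limma change of 3.47 ± 0.47 with an adjusted p of 7.2e-07. In F1 it averaged 9.77 ± 0.12 at 12 h, against 6.82 ± 0.12 in untreated skin, a change of 2.94 ± 0.50. Rbp2 stayed high at 1008 h, by 3.29 ± 0.47 in FVB and 2.17 ± 0.38 in F1. In SPR Rbp2 was higher at 24 h by 3.17 ± 0.59, a limma call at an adjusted p of 0.00823 that no longer passed when any 1 of the 4 arrays of that comparison was left out, with changes of 2.80 to 3.53 and adjusted p between 0.0747 and 0.339. Crabp2, which carries retinoic acid to its receptors, rose by 2.11 ± 0.42 in FVB and 2.03 ± 0.45 in F1 at 12 h. Without F1 12 h replicate 2 the change of Crabp2 in F1 was 2.06 and its limma adjusted p 0.0514. Fabp5, a fatty acid carrier that can also bind retinoic acid, rose by 1.57 ± 0.46 in FVB at 24 h, and the call was lost without untreated replicate 3, 24 h replicate 2 or 24 h replicate 3. In SPR Fabp5 was called lower at 12 h, the time that holds the narrow array. Lrat, which esterifies retinol for storage, fell by 1.77 in FVB at 6 h (limma adjusted p 0.00133). Crabp1 fell by 1.83 at 6 h, and Ces1d, a carboxylesterase, fell by 1.87 at 24 h and by 2.20 at 1008 h in FVB. With control 1 alone the calls of Crabp1 at 6 h (-1.81, limma adjusted p 0.0981), Ces1d at 24 h (-1.49, 0.0725) and Fabp5 at 24 h (1.34, 0.267) were lost.

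Of 30 genes that oxidise or reduce retinol and retinal, 5 rose and 8 fell in FVB, 5 rose and 5 fell in F1, and 4 rose and 7 fell in SPR. This made 43.3% of the list in FVB, 33.3% in F1 and 36.7% in SPR, against 24.3%, 16.2% and 22% of all genes. Aldh1a3, an aldehyde dehydrogenase that makes retinoic acid, averaged 8.24 ± 0.17 at 6 h, against 4.78 ± 0.17 in untreated FVB skin, a limma change of 3.46 ± 0.32 (adjusted p 6.47e-11). It rose by 2.93 ± 0.34 in F1 at 6 h and by 2.53 ± 0.39 in SPR at 4 h. Dhrs9, a short-chain dehydrogenase that oxidises retinol, rose by 2.76 ± 0.37 in FVB and 2.42 ± 0.40 in F1 at 6 h and by 2.08 ± 0.46 in SPR at 4 h. Akr1b8, an aldo-keto reductase that can reduce retinal, rose by 3.83 ± 0.47 in FVB and 3.50 ± 0.50 in F1 at 6 h and by 3.46 ± 0.58 in SPR at 4 h. Each of these calls held when any 1 array was left out. Adh1, the class I alcohol dehydrogenase, fell by 2.74 in F1 at 6 h, to 7.09 ± 0.08 (n = 2), against 9.84 ± 0.36 in untreated skin (n = 4), although without F1 6 h replicate 2 the limma adjusted p was 0.0702. In FVB Adh1 fell by 1.92 at 12 h, where leaving out untreated replicate 2 or 3 or 12 h replicate 2 or 3 ended the call and without 12 h replicate 3 the change was -0.96. Aldh1a7 fell by 1.42 at 6 h in FVB and by 1.76 at 12 h in F1, where the call was lost without 12 h replicate 1 (-1.60). With control 1 alone the FVB calls of Aldh1a7 at 6 h (-1.19, limma adjusted p 0.145) and Adh1 at 12 h (-1.09, 0.478) were lost. Sdr16c5, a retinol dehydrogenase of the epidermis, fell by 1.67 in FVB and 1.40 in F1 at 6 h, and in F1 the call was lost without untreated replicate 4 (-1.31) or 6 h replicate 2 (-0.83).

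Of 14 genes that break down retinoic acid, respond to it or serve as its receptors, 2 rose and 4 fell in FVB, 2 rose and 4 fell in F1, and 1 rose and 4 fell in SPR. The share called was 42.9% in FVB, 42.9% in F1 and 35.7% in SPR, against 24.3%, 16.2% and 22% of all genes. Tgm2, a transglutaminase known as a target of retinoic acid, rose by 2.76 ± 0.43 in FVB and 3.00 ± 0.45 in F1 at 6 h and by 2.16 ± 0.52 in SPR at 4 h. In SPR the Tgm2 call was lost without untreated replicate 1 (2.10) or 4 h replicate 2 (1.83). Ppard, a nuclear receptor for fatty acids, rose by 1.69 ± 0.33 in FVB and 1.31 ± 0.35 in F1 at 6 h, in F1 not without 6 h replicate 2 (0.94). In SPR Ppard was called in the other direction, lower at 12 h, the time that holds the narrow array. The receptor gene Rxrg fell by 1.63 in FVB and 1.23 in F1 at 6 h. Rarg, the main retinoic acid receptor of epidermis, fell by 1.10 in FVB at 6 h and by 1.18 in F1 at 4 h, and these calls were lost without FVB 6 h replicate 3 (-0.70) or F1 4 h replicate 2 (-0.92). With control 1 alone the FVB change of Rarg was -1.22 and not called (limma adjusted p 0.0774). Cyp2s1, a P450 that can oxidise retinoic acid, fell by 1.43 in F1 at 4 h. Cyp26b1, which degrades retinoic acid, fell by 1.12 in FVB at 1008 h, a call lost without untreated replicate 1 (-0.94).

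**Figure D5:**
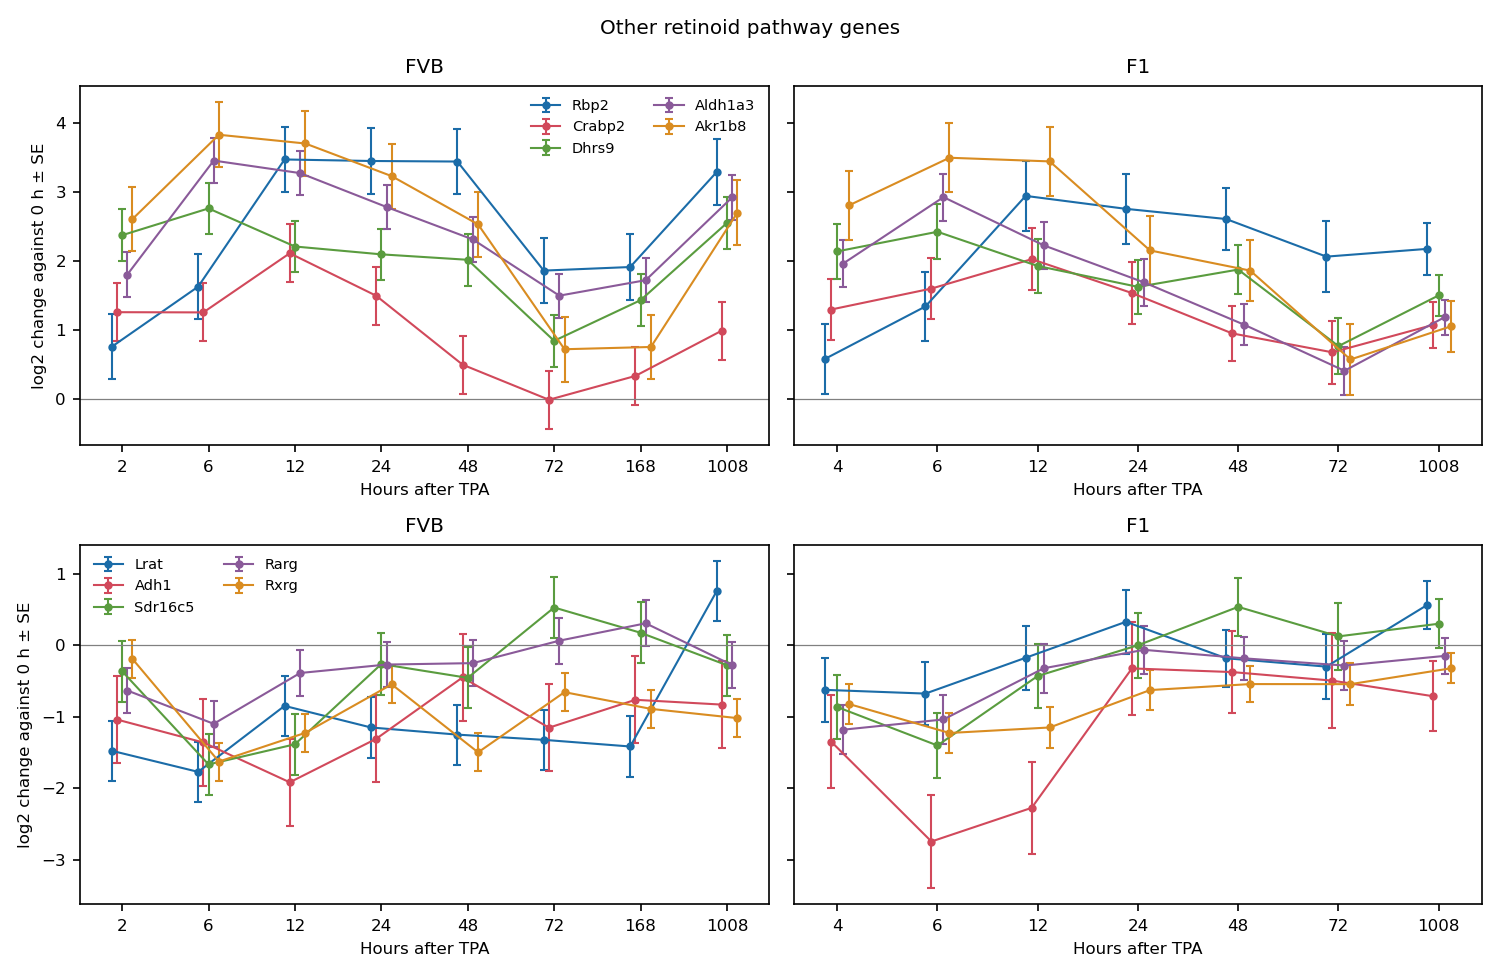
Fitted log2 change against untreated skin with its SE for 10 other retinoid genes over hours after TPA in FVB (left) and F1 (right), with 5 genes that rose in the upper row and 5 that fell in FVB or F1 in the lower row. Rbp2, Dhrs9, Aldh1a3 and Akr1b8 are high at 6 to 24 h and also at 1008 h in FVB, where Rbp2 reaches 3.29.

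Of 11 measured genes of the aryl hydrocarbon receptor pathway, 3 rose and 3 fell in FVB, 2 rose and 1 fell in F1, and 1 rose and 5 fell in SPR. As shares these are 54.5% in FVB, 27.3% in F1 and 54.5% in SPR, against 24.3%, 16.2% and 22% of all genes. Aldh3a1, an aldehyde dehydrogenase under the receptor's control, fell by 1.84 in FVB at 12 h and by 2.22 in F1 at 6 h, with limma adjusted p of 1.36e-06 and 7.4e-08. Slc7a5, an amino acid transporter, rose by 2.37 ± 0.37 in FVB at 6 h and by 2.05 ± 0.39 in F1 at 4 h. Nfe2l2, the regulator of antioxidant enzymes, rose by 1.07 ± 0.26 in FVB at 2 h and by 1.02 ± 0.28 in F1 at 4 h, close to the fold threshold, so that leaving out FVB 2 h replicate 2 (0.99) or 3 (1.00), or F1 untreated replicate 3 (1.00) or 4 h replicate 2 (0.89), ended the call. With control 1 alone the FVB change of Nfe2l2 was 1.12 (limma adjusted p 0.089). The receptor gene itself, Ahr, changed by -0.76 ± 0.36 in FVB and -0.70 ± 0.38 in F1 at 6 h, which did not pass (limma adjusted p 0.119 and 0.216). In SPR Ahr and Arnt were among the 5 genes called lower, all at 12 h, the time that holds the narrow SPR array.

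Of 13 genes on the list of flavin monooxygenases and carbonyl reductases, 1 rose and 6 fell in FVB, 1 rose and 3 fell in F1, and 0 rose and 4 fell in SPR. Together that is 53.8% in FVB, 30.8% in F1 and 30.8% in SPR, against 24.3%, 16.2% and 22% of all genes. Ephx1, the microsomal epoxide hydrolase that opens the epoxides P450 enzymes make, fell by 1.97 in FVB and 1.98 in F1 at 6 h and by 2.04 in SPR at 12 h, where without the narrow array it was -1.61 and not called. Fmo5 fell by 1.53 in FVB and 2.02 in F1 at 6 h, the F1 call being lost without 6 h replicate 2 (-1.67) and the FVB call with control 1 alone (-1.15, limma adjusted p 0.237). Cbr4 fell by 1.38 in FVB at 6 h. Cbr3, another carbonyl reductase, rose by 1.55 ± 0.27 in FVB and 1.17 ± 0.29 in F1 at 12 h, and in F1 the call was lost without either 12 h array (1.23 and 1.11).

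Of 64 other Cyp genes of families 1 to 4, 1 rose and 34 fell in FVB, 1 rose and 5 fell in F1, and 4 rose and 5 fell in SPR. In FVB 54.7% of the list was called, against 24.3% of all genes. The shares of 9.38% in F1 and 14.1% in SPR lay below the 16.2% and 22% of all genes. All rises and falls of this list in SPR were called at 12 h, the time that holds the narrow array. The largest changes among the genes that fell in FVB were -2.85 for Cyp3a57 at 48 h, -2.84 for Cyp2a12 at 72 h, -2.77 for Cyp2c39 at 2 h and -2.54 for Cyp4a31 at 72 h. With control 1 alone these were -2.76, -0.48, -0.23 and -0.23 in that order. The calls of Cyp2a12, Cyp2c39 and Cyp4a31 thus rest on untreated replicates 2 and 3, the untreated FVB arrays with high liver scores. Cyp2j9, an epoxygenase of arachidonic acid, fell by 2.35 in FVB and 1.86 in F1 at 6 h (limma adjusted p 3.19e-11 and 4.98e-08), and with control 1 alone its FVB change was -2.65. Cyp4f37 fell by 1.85 in FVB at 1008 h and by 1.55 in F1 at 6 h. Cyp4f18 rose by 1.25 ± 0.39 in FVB at 48 h, a call lost without untreated replicate 2 or 48 h replicate 3 (0.47), and with control 1 alone (1.09, limma adjusted p 0.319).

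Between untreated SPR and untreated F1 skin, 0 of the 146 pathway genes were called by limma, where 0.239% of all genes were called. At that share a list of this size holds few or no calls. An unadjusted limma p under 0.05 was found for 12 of them, 7 higher and 5 lower in SPR. The share of all genes under that unadjusted p is not given here, so the 12 are a description only. Without the narrow arrays Dgat1, which esterifies fats and retinol, was called higher in SPR (1.04, limma adjusted p 0.0217) and Cyp3a57 lower (-1.79, limma adjusted p 0.00532). Dgat1 and Cyp3a57 were chosen for naming after their values were seen.

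Genes with the most similar course were found by Pearson correlation over the 27 FVB arrays, with the value over the 25 F1 arrays beside it. These are descriptions, since the arrays share the same time course and treatment. For Cyp2w1 the nearest were Ikzf2 (0.943 in FVB and 0.911 in F1), Hoxa7 (0.938 and 0.937) and Slc2a12 (0.932 and 0.9). For Adh7 they were Nrep (0.942 and 0.809), Ptprs (0.91 and 0.931) and Gpam (0.906 and 0.911). Those of Cyp2g1 were Serpina3b (0.91 and 0.507), Scd3 (0.888 and 0.592) and Pcdh7 (0.885 and 0.605). The nearest of Cyp1a1 was Pnpla5 (0.886 and 0.225), of Cyp1b1 Arhgap10 (0.908 and 0.486), of Adh6a Avil (0.879 and 0.254), of Cbr2 Hpcal1 (0.843 and 0.647), of Fmo2 Agpat4 (0.78 and 0.785) and of Stra6 Plcd3 (0.77 and 0.6). For Cyp2w1 all 3 nearest genes had values of 0.9 or more in F1 as well, whereas the nearest of Cyp1a1 and Adh6a had 0.225 and 0.254 there. Between members, Cyp1a1 and Cyp2g1 had the highest correlation in FVB (0.846, and 0.339 in F1), and Adh6a and Adh7, both on chromosome 3, had 0.004 in FVB and 0.8 in F1.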

How the data were processed

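Whole dorsal skin RNA was hybridised as biotin-labelled cRNA to 69 arrays. Values were deposited on the log2 scale for 35556 probe sets, as their range shows, and RMA is the tool named in the submitters' processing notes, without a version. RMA subtracts background, equalises the distributions of arrays and fits 1 value per probe set, so values are relative to each array's whole, and no source used here gives how batches were treated. By the platform annotation, 21218 probe sets carry 1 symbol, 1881 carry several (left out) and 12457 are unnamed here. For a gene with more than 1 probe set, that with the highest mean was fitted, giving 18820 genes. The array's design follows the reference mouse, and the match of SPR transcripts to its probes was not tested.

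Groups come from strain and hours in the labels, and 3 arrays without a strain label entered no comparison. The 9 genes and the pathway and marker lists were chosen with earlier results of these data known. Changes were fitted with limma 3.58.1 in R 4.3.3 (lmFit, eBayes) on 27 group means and a batch 3 against batch 2 term, leaving 38 residual degrees of freedom. Calls needed an adjusted p (Benjamini-Hochberg within a contrast) under 0.05 and an absolute log2 change of at least 1. Times with a single array were not tested. The procedure was tested on simulated data. The text may name any called pathway gene and leads with up to 4 of the largest changes per list and direction, and likeness names 3 genes per member at most. Marker scores are means over list genes of their deviation from each gene's mean. By the rule that every pair exceed 0.1, replicate numbers do not pair the arrays: the median correlation of their deviations was -0.01 in FVB, 0.06 in F1 and 0.00 in SPR, with values between -0.61 and 0.456 in FVB, -0.34 and 0.385 in F1, and -0.29 and 0.267 in SPR. Alternatives changed the scaling, filter, probe set rule, fold threshold, batch handling and arrays used. Promoter sequences come from RefSeq tables of GRCm38.p6.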

Additional observations from a re-analysis of the deposited data

Results flagged for a closer look

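The 9 genes in untreated F1 skin and in F1 skin at 1008 h, the groups of 4 or more arrays, gave 18 sets of values. Only 1 set held an array far from the others, Cyp2g1 in untreated F1 skin, where replicate 2 read 11.221 and the other arrays between 11.46 and 11.48. By its nominal level the rule marks about 1 in 20 such sets by chance, and the 18 share the same arrays, so they are not independent.

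In 135 comparisons of a gene and time between strains, 9 had every array of a strain on one side of its untreated mean and every array of the other on the opposite side. None of these differences was tested. For Cyp2g1 the mean changes at 12 h were 0.837 in SPR, against -2.018 in FVB and -0.968 in F1, and at 48 h they were 0.084 in SPR, against -3.289 in FVB. For Cyp2w1 at 12 h they were 0.149 in SPR, against -2.057 in FVB and -1.293 in F1. For Adh6a at 24 h they were -0.765 in SPR, against 0.106 in F1. For Adh7 at 1008 h they were -0.183 in SPR, against 0.225 in FVB. For Fmo2 at 1008 h they were 0.303 in SPR, against -2.133 in FVB and -0.579 in F1. The 12 h values of SPR include the narrow array.

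Of the 3 arrays without a strain label, 1, labelled 2 h, read 12.046 for Cyp2g1, above the highest untreated array (11.738), and 1, labelled 6 h, read 7.054 for Stra6, against 7.05 on the highest untreated array.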

How the results depend on the processing

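The count of 75 pathway genes called in FVB was 33 with control 1 alone and ran between 43 and 86 when 1 array was left out, with 48 without untreated replicate 2 and 43 without untreated replicate 3. The F1 count of 32 was 50 with F1 fitted alone, 2 in batch 2 alone, 73 in batch 3 alone (chosen after seeing the data) and 28 to 42 with 1 array left out. The SPR count of 40 was 16 after cyclic loess, 0 with SPR fitted alone, 4 in batch 2 alone, 14 without the narrow arrays and 13 to 90 with 1 array left out, with 13 without SPR 12 h replicate 1, 90 without SPR 12 h replicate 2, and 16 and 14 without untreated replicates 1 and 2. For untreated SPR against F1 the count of 0 was 1 after cyclic loess (Dgat1), 1 with no fold threshold (Cbr4), 2 without the narrow arrays and 0 to 1 with 1 array left out (Cbr4 without F1 untreated replicate 1). With the replicate number as a block the counts were 64 in FVB, 32 in F1, 40 in SPR and 0 between strains; the numbers do not pair the arrays. No other alternative moved these counts by more than 1.5 times. Of the 189 changes of the 9 genes, recomputed as 5931 alternative values, 63 values moved by more than the spread of replicates and 0 that met the call turned sign. Of 2713 alternative values of the 76 named pathway calls, 112 lost the call and 0 turned sign, and the cause was not tested. Many of the alternative values of both kinds leave out an array of another time, which hardly moves the size of a change or cannot move it. The numbers that moved or lost the call are therefore no measure of robustness. Small groups limit F1 and SPR, and dim probe sets such as the second of Cyp1b1 lie near background.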

Other observations

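The 3 arrays without a strain in the labels carry 2 h and 6 h for array 1 and array 2 and no time for array 3. Cyp2g1 read 12.046, 5.488 and 6.906 on arrays 1 to 3. Cbr2 read 8.809, 7.367 and 7.798 on the same arrays, Cyp2w1 read 6.001, 5.132 and 5.427, and Adh7 read 8.142, 7.177 and 9.249. No strain was assigned to these arrays from their values.

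Stra6 was set beside the hair follicle score on single F1 arrays. The array of the 2 h time had a score of 2.372 and a Stra6 value of 8.559, 24 h replicate 1 had 2.118 and 8.500, and untreated replicate 1 had 2.150 and 7.050, which is the highest Stra6 value of untreated F1 skin. At 1008 h, scores between -0.739 and 1.533 stood beside Stra6 values between 6.738 and 9.075. In FVB, Stra6 at 72 h lay between 7.846 and 8.259 on arrays with scores between -1.344 and -0.687, below those of untreated skin. SPR arrays had scores of 1.744 and 0.172 at 24 h, 1.897 and 1.449 at 48 h and 1.800 and 1.776 at 1008 h, against -0.425 and -0.276 untreated. The fitted Stra6 changes beside them were 2.35 at 24 h, 1.51 at 48 h and 0.62 at 1008 h. The part of hair follicle content in the Stra6 values was not tested.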
